A study of Homo sapiens with 2 samples.

Results

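Wide DNase I hotspots found in U2OS and not in Saos-2 were examined for their place in the genome, their grouping and the genes beside them. A hotspot is an interval in which DNase I cut the DNA more often than the authors' threshold allows by chance. The set holds every U2OS hotspot on chromosomes 1 to 22 that was at least 400 bp wide and had no Saos-2 hotspot within 2 kb on either side. Hotspots in chains of 8 or more U2OS hotspots with neighbours at most 2 kb apart were to be left out, but none that met the other criteria lay in such a chain. These criteria selected 2317 hotspots, which is 20.6% of the 11230 wide autosomal U2OS hotspots, out of 63388 U2OS and 51556 Saos-2 hotspots in all. They are called U2OS-only wide hotspots here. Their width and the lack of a Saos-2 hotspot nearby chose them and are not findings.

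DNase I cuts DNA where nucleosomes are displaced, which happens at active promoters, enhancers, insulators and other regulatory elements. Promoters of widely used genes are open in most cell types, whereas distal elements, which can act on genes over long distances, differ more between cell types. A hotspot shows that DNA was accessible and does not show which gene, if any, the site acts on.

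Saos-2 and U2OS are established human cell lines, both derived from osteosarcoma, a bone tumour. The groups of the study are the cell lines themselves, with no treatment named, and each is represented by 1 library made from nuclei digested with DNase I for 3 min. With 1 library per line there is no replicate error, so no p-value is given, and differences describe these 2 libraries. Wilson 95% intervals accompany shares and order-statistic 95% intervals accompany medians. They cover counting error only and are too narrow because neighbouring hotspots are not independent. Read depth is unknown, and a deeper U2OS library, a different number of DNA copies and a difference in accessibility cannot be told apart. Of 13 osteoblast marker genes, RUNX2 and ALPL had a U2OS-only wide hotspot within 10 kb and the other 11 had none. Of 17 markers of other cell types, PTPRC of blood cells and RBFOX3 of neurons had one, against 6.04% of all protein-coding genes. SPP1, which encodes osteopontin, had no hotspot of any width within 10 kb in either line.

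The promoters of the first 7 genes by the significance of a hotspot that covered at least 200 bases of the window are shown first, since they give the sequence context in which a promoter was accessible in U2OS with no Saos-2 hotspot near. Each is the 250 bases before an annotated transcription start, the part of a promoter window without its last 50 bases, 5′ to 3′ on the gene's strand, from RefSeq on GRCh38.p14. Capitals mark matches on either strand to fixed motifs, and in L3MBTL1 a repeat described after its sequence had been seen.
SRI: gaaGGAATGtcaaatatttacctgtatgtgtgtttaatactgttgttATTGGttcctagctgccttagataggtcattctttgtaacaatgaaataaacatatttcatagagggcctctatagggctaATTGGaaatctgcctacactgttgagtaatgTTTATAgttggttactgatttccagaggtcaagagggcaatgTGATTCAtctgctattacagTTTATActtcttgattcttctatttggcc
L3MBTL1: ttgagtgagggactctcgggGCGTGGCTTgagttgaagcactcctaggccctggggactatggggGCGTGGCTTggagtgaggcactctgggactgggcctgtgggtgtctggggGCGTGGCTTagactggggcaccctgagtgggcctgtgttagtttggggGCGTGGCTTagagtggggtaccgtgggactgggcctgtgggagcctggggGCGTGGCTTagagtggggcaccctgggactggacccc
OSBPL9: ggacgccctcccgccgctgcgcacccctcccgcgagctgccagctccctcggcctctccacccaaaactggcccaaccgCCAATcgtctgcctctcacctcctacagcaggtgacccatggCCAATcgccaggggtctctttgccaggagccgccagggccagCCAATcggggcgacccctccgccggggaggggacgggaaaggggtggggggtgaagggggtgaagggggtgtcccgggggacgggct
KIAA1671: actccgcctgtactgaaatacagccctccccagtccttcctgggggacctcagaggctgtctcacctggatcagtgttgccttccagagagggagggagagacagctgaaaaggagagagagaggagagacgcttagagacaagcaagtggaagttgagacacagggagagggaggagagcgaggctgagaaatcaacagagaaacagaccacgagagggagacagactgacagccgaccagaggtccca
ZNF180: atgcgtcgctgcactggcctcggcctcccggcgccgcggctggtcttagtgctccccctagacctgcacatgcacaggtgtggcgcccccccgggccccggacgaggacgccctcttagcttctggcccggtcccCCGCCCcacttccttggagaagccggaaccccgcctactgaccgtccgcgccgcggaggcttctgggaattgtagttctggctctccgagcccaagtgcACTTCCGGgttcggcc
CPOX: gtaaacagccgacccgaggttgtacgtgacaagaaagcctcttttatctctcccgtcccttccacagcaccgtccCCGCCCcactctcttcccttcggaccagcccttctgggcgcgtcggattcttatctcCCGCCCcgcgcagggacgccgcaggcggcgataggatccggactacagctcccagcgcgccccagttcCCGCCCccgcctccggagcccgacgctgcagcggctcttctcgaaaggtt
MYH14: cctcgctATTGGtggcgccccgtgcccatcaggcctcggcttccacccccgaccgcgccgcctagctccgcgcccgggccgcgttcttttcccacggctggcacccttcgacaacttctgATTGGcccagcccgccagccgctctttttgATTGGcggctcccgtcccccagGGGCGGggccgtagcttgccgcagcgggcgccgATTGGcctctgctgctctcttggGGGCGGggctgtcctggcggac

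The SRI sequence (chr7:88226977-88227226, minus strand) belongs to the gene of sorcin, a calcium-binding protein. Its hotspot, 624 bp wide, reached a significance of 50.7, the highest of any U2OS-only wide hotspot that covered at least 200 bases of a promoter window. Significance is the authors' −log10 value for each hotspot. The window is poor in G and C, at 37%, and holds no CpG dinucleotide. Its capitals are matches to the TEAD motif GGAATG, the CCAAT box CCAAT, the TATA box TATAAA and the AP-1 motif TGANTCA. The nearest Saos-2 hotspot lay 6.38 kb away with a significance of 2.45.

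L3MBTL1 (chr20:43514191-43514440, plus strand) is an imprinted gene for a protein that binds methylated histones. Its hotspot, at a significance of 40.1, was 671 bp wide and lay 23.7 kb from the nearest Saos-2 hotspot. No fixed motif was found in the 250 bases. The string GCGTGGCTT occurs there 5 times. At least 1 copy on either strand was present in 100 of 21041 promoter windows of protein-coding genes (0.475%), and L3MBTL1 had the only window with 5.

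The other printed promoters varied in CpG content. OSBPL9 (chr1:51729600-51729849, plus strand), an oxysterol-binding protein gene, has 3 CCAAT boxes, a ratio of observed to expected CpG of 0.603 over its window and a hotspot of significance 22.5. KIAA1671 (chr22:25110893-25111142, plus strand) has no match, 7 CpGs, a ratio of 0.308 and a hotspot of significance 20.7. The last 3 had ratios from 0.848 to 0.989. ZNF180 (chr19:44500523-44500772, minus strand), a zinc finger gene, has a match to the ETS motif CCGGAAGT and a match to the GC box GGGCGG, and its hotspot had a significance of 20.7. CPOX (chr3:98593612-98593861, minus strand), which encodes the haem biosynthesis enzyme coproporphyrinogen oxidase, has 3 GC boxes and a hotspot of significance 19.7, at 54.8 kb from the nearest Saos-2 hotspot. MYH14 (chr19:50203372-50203621, plus strand), a nonmuscle myosin heavy chain gene, has 2 GC boxes and 4 CCAAT boxes and a hotspot of significance 18.7. CCDC77, ZNF334 and PYROXD2 complete the first 10 genes, with significances from 17.6 to 18.1. The first 10 therefore include both CpG-rich promoters and promoters with few CpGs.

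The hotspots were mostly near the lower limit of width. The median width was 478 bp, 90% lay between 405 and 759 bp, and the widest was 1402 bp. Just inside the limit, 110 hotspots at most 4 bp above 400 bp had a median significance of 10.4. Just outside it, 111 hotspots at most 5 bp below 400 bp that met the other criteria had a median of 10.8. The smallest distance to a Saos-2 hotspot was 2007 bp in the set, and the largest among wide hotspots excluded for a Saos-2 hotspot within 2 kb was 1994 bp. The median significance of the set was 12.1, compared with 17.3 for the 8710 wide U2OS hotspots that overlapped a Saos-2 hotspot. It was 3.30 for the 26114 narrower U2OS hotspots that met the same criteria and 9.98 for the 1404 wide Saos-2 hotspots selected by the mirrored criteria. These sets are used for comparison below as shared wide, narrower U2OS-only and Saos-2-only wide hotspots.

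U2OS-only wide hotspots were seldom at genes' ends. At most 1 kb from the start or the end of a protein-coding gene there were 197 of them (8.50%, interval 7.43 to 9.71%). The share was 38.2% (37.2 to 39.2%) for shared wide hotspots. It was 8.08% for narrower U2OS-only and 6.98% for Saos-2-only wide hotspots. For narrower Saos-2-only hotspots, selected by the mirrored criteria, it was 6.68% (6.30 to 7.09%). The low share therefore held for these line-restricted hotspots of either line and either width class.

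Most of the sites were far from genes' ends. The median distance to the nearest end of a protein-coding gene was 52.1 kb (48.3 to 56.6 kb) for U2OS-only wide hotspots and 9.67 kb for shared wide hotspots. It was 41.0 kb for narrower U2OS-only and 41.5 kb for Saos-2-only wide hotspots. Of the 2119 U2OS-only wide hotspots off chromosome 8, for which promoter windows were used, 914 lay more than 100 kb from a transcription start and 226 (10.7%) more than 500 kb from one.

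A promoter window was overlapped by 147 of these 2119 hotspots (6.94%, 5.93 to 8.10%). Windows run from 250 bases before to 50 bases after a transcription start. The share was 34.8% for shared wide, 4.40% for narrower U2OS-only and 3.76% (2.87 to 4.91%) for Saos-2-only wide hotspots. Within protein-coding genes but off these windows lay 816 (38.5%), within other annotated genes such as long noncoding RNA genes 358 (16.9%), and in no annotated gene 798 (37.7%). Among shared wide hotspots 22% lay in no annotated gene. Over all 22 autosomes, 1030 U2OS-only wide hotspots (44.5%, 42.4 to 46.5%) lay inside a protein-coding gene, against 65.4% of shared wide and 51.0% (48.4 to 53.6%) of Saos-2-only wide hotspots.

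**Figure D1:**
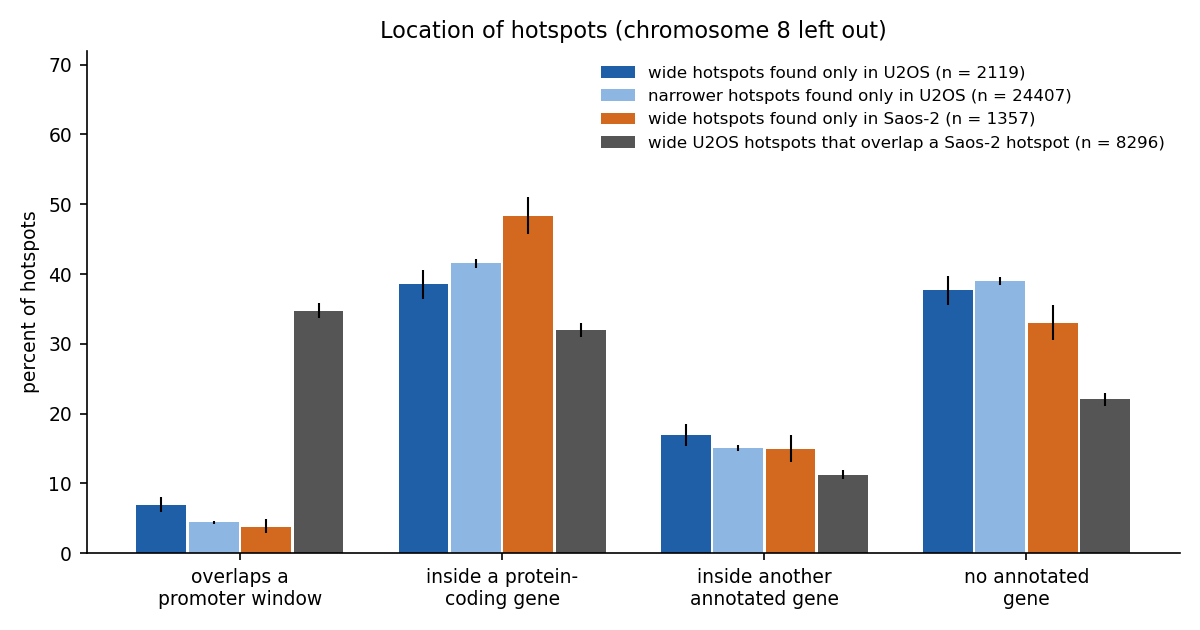
Percent of hotspots (vertical axis) that overlap a promoter window, lie elsewhere in a protein-coding gene, lie in another annotated gene or lie in no annotated gene, for 4 sets of hotspots off chromosome 8. Bars are shares and lines are Wilson 95% intervals. The promoter bar stands at 6.94% for U2OS-only wide hotspots and at 34.8% for wide U2OS hotspots that overlap a Saos-2 hotspot.

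Promoter overlap fell with significance among U2OS-only wide hotspots and did not fall among shared ones. In the lowest of 4 significance ranges (1.77 to 7.98), 62 of 536 U2OS-only wide hotspots (11.6%, 9.13 to 14.6%) overlapped a promoter window. The next ranges had 8.24% and 6.30%, and the highest range (18.2 to 100) had 8 of 521 (1.54%, 0.780 to 3.00%). Over the same ranges the shares of shared wide hotspots were 31.6%, 32.9%, 31.9% and 37.7%. The share inside a protein-coding gene stayed between 42.8% and 46.9% in U2OS-only wide hotspots. The most significant sites of the set thus lay away from promoters more often than its least significant sites, a description of values from the same library that chose the set.

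**Figure D2:**
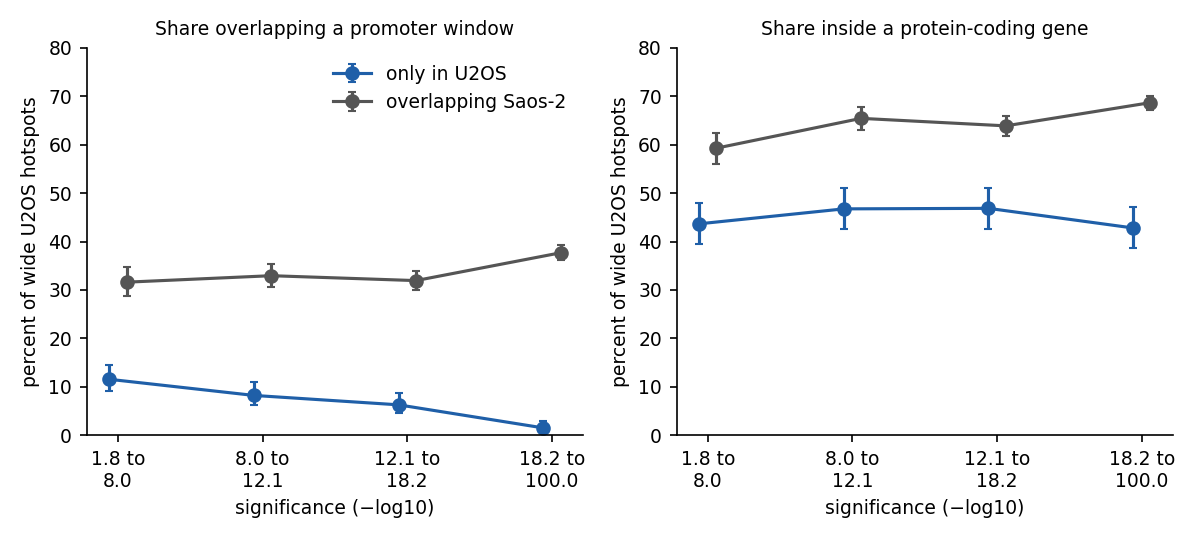
Percent of wide U2OS hotspots that overlap a promoter window (left) or lie inside a protein-coding gene (right), by the authors' −log10 significance in 4 ranges set at the quartiles of the U2OS-only hotspots. Points are shares and bars are Wilson 95% intervals. The promoter share goes from 11.6% to 1.54% in U2OS-only hotspots and from 31.6% to 37.7% in those that overlap a Saos-2 hotspot.

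Across promoters as a class, the 147 hotspots overlapped 180 windows of 157 protein-coding genes. These windows had a median GC content of 66% (64 to 67%). A ratio of observed to expected CpG of at least 0.6 was found in 143 of them (79.4%, 73.0 to 84.7%). That share was 93.5% for the 3927 windows under shared wide hotspots, 62.5% for all 21041 windows and 38.6% for the 10874 windows with no hotspot in either line. For the 59 windows under Saos-2-only wide hotspots it was 81.4% (69.6 to 89.3%). By CpG content the windows of the set thus fell between shared promoters and all promoters, as did those under Saos-2-only wide hotspots.

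Motif matches in these 180 windows were counted on both strands as a description. The ETS motif CCGGAAGT was in 17 (9.44%, 5.98 to 14.6%), against 10.9% under shared wide hotspots and 5.40% of all windows. The GC box GGGCGG was in 67.2% (60.1 to 73.7%; all windows 56.6%, shared 75.4%), and CCAAT in 30% (all windows 34.4%, shared 47.7%). TATAAA was in 7.78% (4.69 to 12.6%; all 9.54%, shared 3.92%), the TEAD motif GGAATG in 12.2% (all 12.2%), and the AP-1 motif TGANTCA in 6.11% (all 6.09%). The RUNX motif TGTGGT was in 10.6% (all 11.2%), the E-box CACGTG in 6.67% (all 8.22%), the CREB motif TGACGTCA in 2.22% (all 2.30%) and the NRF1 motif in 1.11% (all 1.48%). The p53 and NFI motifs were in none, against 0.280% and 0.0285% of all windows. For CCAAT (interval 23.8 to 37.1%) and the GC box the interval lay below the share under shared hotspots, and for TATAAA it lay above it, while for TEAD, AP-1 and RUNX the shares were close to those of all windows.

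Many of the sites lay in surroundings with few Saos-2 hotspots. The median distance to the nearest Saos-2 hotspot was 30.8 kb, and the largest was 1799 kb. No Saos-2 hotspot lay within 50 kb of 842 sites (36.3%, 34.4 to 38.3%), and none within 500 kb of 54 (2.33%). For narrower U2OS-only hotspots these shares were 31.6% and 1.55%. Within 500 kb the median was 16 Saos-2 and 26 other U2OS hotspots around a U2OS-only wide hotspot, compared with 27 and 30 around a shared wide hotspot. The criteria cleared 2 kb on either side of Saos-2 hotspots, and a shared wide hotspot overlaps one by definition. These distances and counts therefore follow in part from the choice of the sets. Sites with no Saos-2 hotspot within 50 kb had a median significance of 13.3 (12.7 to 14), and the others 11.4 (10.9 to 12).

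By chromosome, the share of wide U2OS hotspots that met the criteria varied from 13.6% to 36.7%. Chromosome 18 had the highest share, 92 of 251 (36.7%, 30.9 to 42.8%). Chromosome 8 followed with 198 of 626 (31.6%, 28.1 to 35.4%) and chromosome 5 with 175 of 710 (24.6%, 21.6 to 27.9%). The lowest shares were on chromosomes 1 (15.7%), 17 (13.9%) and 19 (13.6%, 10.7 to 17%). The mirrored share of Saos-2-only among wide Saos-2 hotspots was 13.9% on chromosome 8 and 19.7% (13.8 to 27.3%) on chromosome 18. Over all autosomes the mirrored share was 15.5% of 9032 wide Saos-2 hotspots, against 20.6% for U2OS. By chromosome, the mirrored share exceeded the U2OS share on 3 of 22, namely 6, 9 and 21, and was lower on the other 19. That count is to be read against the difference over all autosomes. With a minimum width of 600 bp, chromosome 18 ranked 3rd, chromosome 8 ranked 2nd and chromosome 5 ranked 9th.

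**Figure D3:**
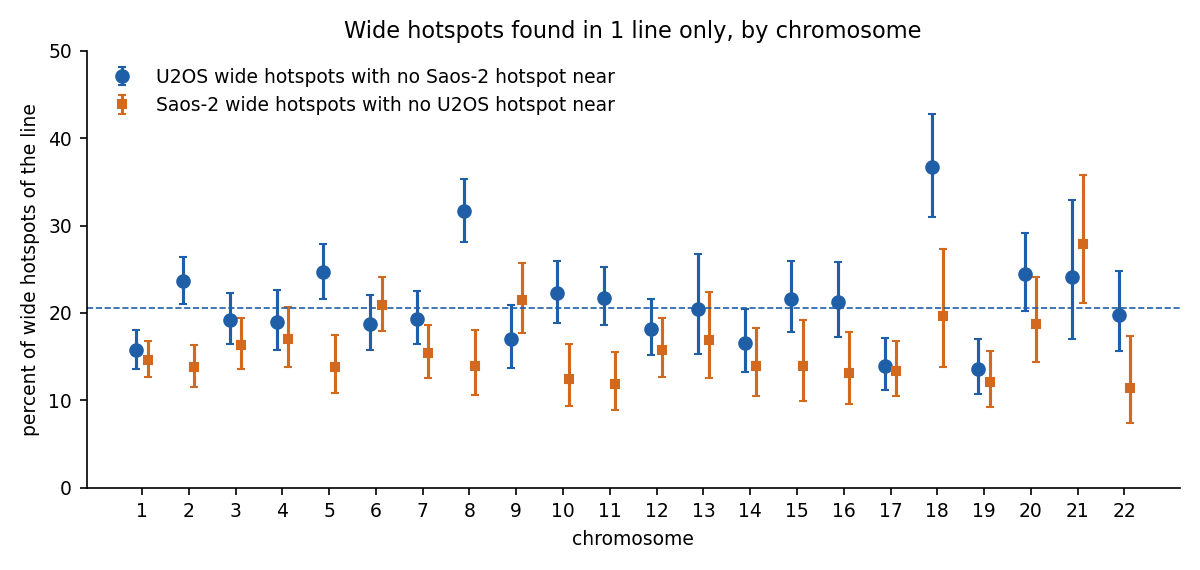
Percent of the wide hotspots of a line that had no hotspot of the other line within 2 kb, by chromosome. Circles are U2OS, squares are Saos-2, bars are Wilson 95% intervals and the dashed line is the U2OS share over all autosomes (20.6%). Chromosomes 18 (36.7%) and 8 (31.6%) stand highest for U2OS.

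Within chromosomes the sites were unevenly spread. Of 5 Mb windows, 521 held at least 1 and 37 held 10 or more. The fullest, from 25 to 30 Mb on chromosome 8, held 32 of its 54 wide U2OS hotspots, and in it all widths together gave 224 U2OS and 55 Saos-2 hotspots. From 135 to 140 Mb on the same chromosome, 14 of 17 wide U2OS hotspots met the criteria, with 121 U2OS and 16 Saos-2 hotspots. The first 15 Mb of chromosome 18 held 48 of 113 wide hotspots, and the first 5 Mb of chromosome 5 held 15 of 24. In these windows Saos-2 hotspots of any width were fewer than U2OS hotspots, as they were in the whole lists (51556 against 63388). The windows were picked for their sites, which have no Saos-2 hotspot near, so this follows in part from the choice. A lower number of DNA copies in Saos-2 and less accessible DNA there cannot be told apart.

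Clustering at a short range was limited. Joined at distances of at most 50 kb, 448 sites (19.3%, 17.8 to 21.0%) fell into 206 clusters, and 1869 were alone. Among the clusters 180 had 2 sites, 18 had 3, 6 had 4 and 2 had 5. In 170 clusters no Saos-2 hotspot lay within the span. Each site is more than 2 kb from any Saos-2 hotspot, so a cluster with short gaps cannot hold one. That count thus follows in part from the criteria. The clustered share was 42.0% for the 8710 shared wide hotspots. It was 17.2% (15.4 to 19.3%) for the 1404 Saos-2-only wide hotspots, from which the criteria removed 98 in dense chains. With these kept it was 22.7% (20.7 to 24.9%) of 1502, so the order of the lines depends on that criterion. The sets also differ in size, and with a lower width limit the share rose to 35.4% of 6074 U2OS sites. The lines are therefore not compared at like numbers of sites. Clustered sites had a median significance of 13.6 (12.7 to 14.7) and lone sites 11.8 (11.4 to 12.2). Some clustered sites were only a few bases apart, and joining hotspots of a line less than 150 bp apart before selection gave 2735 sites.

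The 5 largest clusters were on chromosomes 8, 17 and 15. The first, chr8:29770410-29888073, held 5 sites in and beside LINC02099, with significances from 13.1 to 100, 11 U2OS hotspots in all and no Saos-2 hotspot. Its nearest protein-coding gene, SARAF, a regulator of store-operated calcium entry, was 175 to 292 kb away. Next to it were chr8:29969908-30020563, with 4 sites, 42.4 to 92.4 kb from SARAF, and chr8:29511586-29556890, with 4 sites, 161 to 206 kb from DUSP4, which encodes a phosphatase of MAP kinases. The first and the last of these lay inside the fullest 5 Mb window, and the other ran across its end.

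Elsewhere, chr17:72600951-72662042 held 5 sites across LINC00511 and the zinc transporter gene SLC39A11, with significances from 10.4 to 33.3 and 1 Saos-2 hotspot in its span. The tightest of the 5, chr15:67041645-67050363, placed 4 sites of 421, 596, 439 and 1169 bp within 8.72 kb, with significances from 6.99 to 50.8. It lay in SMAD3-DT, the divergent transcript of SMAD3, and 15.2 to 23.5 kb before SMAD3, which encodes a transducer of TGF-beta signals. A further site of 402 bp, at a significance of 19, lay inside SMAD3.

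The most significant site, chr8:29804013-29804703, belongs to the first of these clusters and was at the upper limit of 100. The second, chr14:49505198-49505876 (82.2), lay 65.1 kb from RPS29, a ribosomal protein gene. The third, chr8:139215162-139216269 (76.4), was 1108 bp wide, lay 301 kb from the collagen gene COL22A1 and was 212 kb from the nearest Saos-2 hotspot. Of the 10 most significant sites, 4 were on chromosome 8. Another 3 lay inside protein-coding genes, namely ADAMTSL3 (66.1), which encodes a secreted matrix glycoprotein, SGSM1 (62.8) and TOGARAM2 (57.1). The site chr19:35405071-35405803 (75.2) lay in LINC01531, and chr5:23466289-23467024 (62.2) lay 40.1 kb from PRDM9, which specifies recombination sites in germ cells. None of the 6 off chromosome 8 overlapped a promoter window, and the nearest to a transcription start was the site in TOGARAM2, at 4.30 kb.

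The widest sites, in contrast, were mostly at genes. The widest, chr16:3023068-3024469, was 1402 bp at a significance of 14.1 and covered promoter windows of HCFC1R1 and THOC6, which encodes a subunit of an mRNA export complex. The second, chr19:56838763-56840044, was 1282 bp at 26.8 and lay in PEG3 and ZIM2, imprinted zinc finger genes that share a promoter region. It was 0.681 kb from the nearest gene boundary, counting starts and ends alike. The others were in the zinc finger genes ZFP82 (1197 bp) and ZNF565 (1174 bp) and in an uncharacterised locus on chromosome 17 (1176 bp). Farthest from protein-coding genes were 4 sites on chromosome 22 between 10961009 and 12602607, at 2926 to 4567 kb from OR11H1, and chr4:33781140-33781671, at 2224 kb from ARAP2. The chromosome 22 sites had significances from 5.26 to 13.5, and the site on chromosome 4 had 42.3.

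Of 19126 autosomal protein-coding genes, 1156 had a U2OS-only wide hotspot within 10 kb of the gene or inside it, a share of 6.04%. There were 191 genes with at least 2, 37 with at least 3, 12 with at least 4 and at most 7. Long genes took most of them: the median length was 102 kb for genes with such a hotspot and 24.5 kb for all genes. In 5 equal groups by length, from short to long, the share of genes was 2.51%, 2.93%, 3.56%, 4.63% and 16.6%. In 295 of the genes (25.5%, 23.1 to 28.1%) no Saos-2 hotspot of any width lay in the same span, against 24.2% of all genes. The shares are not at like length, since genes with a U2OS-only wide hotspot are longer. In the longest of the 5 length groups the share was 10.9% (8.68 to 13.5%), against 8.84% of all genes of that group. A Saos-2-only wide hotspot was near 91 of the 1156 genes (7.87%), against 4.37% of all genes. This comparison is not at like length either, since 635 of the 1156 genes are in the longest group. In that group 11.8% of all genes had a Saos-2-only wide hotspot, and in the shortest group 1.10%. These 91 are 10.9% of the 835 genes with one.

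DLGAP1, which encodes a scaffold protein of excitatory synapses, had the most sites. Its 7 covered 4228 bp and had significances of 23.2, 7.61, 18.1, 34.8, 12.8, 14 and 5.06. In all, 41 U2OS and 9 Saos-2 hotspots lay in its span on chromosome 18. RPS6KA2, which encodes a ribosomal S6 kinase, had 6 sites with significances from 9.80 to 49.1, among 20 U2OS and 2 Saos-2 hotspots. CMSS1 and FILIP1L overlap on chromosome 3 and shared 5 sites with significances from 7.67 to 38.1. Their single Saos-2 hotspot was 51 bp wide within the counted span. CNTN5, a neural adhesion gene, had 4 sites, 1 of which covered its promoter at a significance of 3.86. The genes were ranked by sites that are clear of Saos-2 hotspots, so these counts describe the choice.

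Among genes with no Saos-2 hotspot in their span, the locus on chromosome 16 with the widest site came first. There 2 sites, of 942 and 1402 bp, lay within 10 kb of 6 genes at once: the tight junction genes CLDN9 and CLDN6, TNFRSF12A, which encodes the receptor for the cytokine TWEAK, HCFC1R1, THOC6 and BICDL2. SDK1, which encodes a synaptic adhesion protein, had 4 sites with significances of 24.7, 23.6, 16.1 and 40.1 among 22 U2OS hotspots, all inside the gene. ADAMTS12, which encodes a secreted metalloprotease of the matrix, had 4 sites with significances of 33.2, 6.26, 29.3 and 22.7 among 11 U2OS hotspots. The last 2 lay 0.712 and 2.58 kb from its transcription start, and the promoter window itself held a U2OS hotspot of 393 bp, too narrow for the set. PEG3 and ZIM2 shared 2 sites of 987 and 1282 bp.

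To see whether distal sites went with promoter hotspots in the same line, 684 genes were taken that had a U2OS-only wide hotspot within 10 kb but none within 2 kb of a promoter window. A promoter hotspot of any width was present only in U2OS in 100 of them (14.6%, 12.2 to 17.5%). It was present in both lines in 31.1%, only in Saos-2 in 3.51% and in neither in 50.7% (47.0 to 54.5%). Over all 15101 genes with a window, the shares were 8.64%, 43.6%, 4.36% and 43.4%. A distal U2OS-only wide hotspot was thus found most often beside a promoter without a hotspot.

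The mirrored genes differed in the shares of both and neither. Among 619 genes with a distal Saos-2-only wide hotspot, the promoter had a hotspot in both lines in 52.0% (48.1 to 55.9%) and in neither in 31.3% (27.8 to 35.1%). It had one only in Saos-2 in 6.79% and only in U2OS in 9.85%. Within the longest 1 of the 5 length groups, a U2OS-only promoter hotspot was found in 16.8% (13.5 to 20.6%) of 429 genes with a distal U2OS-only site. It was found in 12.9% of all 3020 genes of that group and in 11.5% (8.56 to 15.3%) of 348 genes with a distal Saos-2-only site. The excess over all genes was therefore smaller among long genes, and its interval reached down to 13.5%. Genes with distal sites and a promoter hotspot only in U2OS include CMSS1 (5 sites), ASIC2 (3 sites) and, with 2 sites each, ADAMTSL3, RGS7, SEMA3E and CDK6, examples picked after their values were seen. CDK6 encodes a cell cycle kinase, and RGS7 a regulator of G protein signalling.

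**Figure D4:**
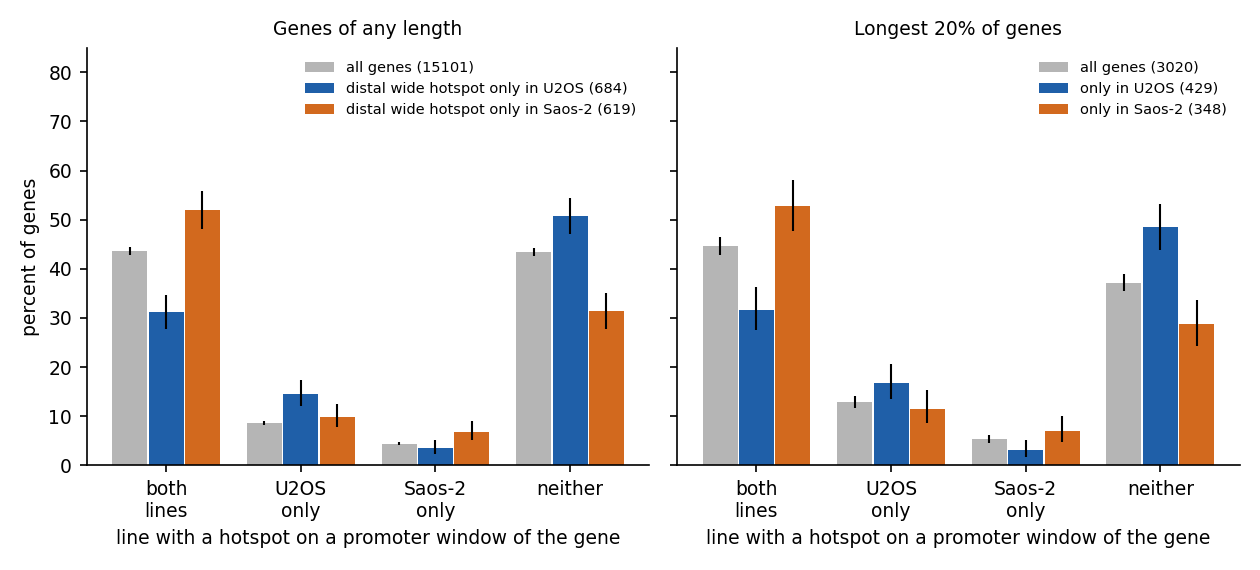
Percent of genes by the line in which a promoter window of the gene overlaps a hotspot of any width, for all genes, genes with a distal U2OS-only wide hotspot and genes with a distal Saos-2-only wide hotspot. The left panel has genes of any length and the right panel the longest of 5 length groups, with numbers of genes in parentheses and Wilson 95% intervals as lines. Promoters with a hotspot in neither line make up 50.7% of genes with a distal U2OS-only site and 31.3% of genes with a distal Saos-2-only site.

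Functions of nearby genes were described with 22 gene lists. The share with a U2OS-only wide hotspot within 10 kb is given for each, to be read against 6.04% of all genes and against gene length, since 13 of the lists have a median length above that of all genes. The median number of sites per gene was 0 in every list, as over all genes. The interval lay above 6.04% for 5 lists and below it for 1. The share exceeded the mirrored Saos-2 share in 16 lists, equalled it in 3 and was smaller in 3. Over all genes the U2OS share was already the larger, 6.04% against 4.37%. The U2OS-only set also holds more hotspots, 2317 against 1404, so the count of lists is to be read against that difference.

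Hippo signalling restrains the coactivator YAP1, which works through TEAD factors. Of 25 genes of the pathway and its targets, 6 had a site (24.0%, 11.5 to 43.4%), with a median list length of 59.9 kb. YAP1 itself had 2, of 699 and 921 bp with significances of 10.6 and 5.37. The first covered its promoter window, where Saos-2 had no hotspot, and the nearest Saos-2 hotspot to either was 27 kb away. Over the whole gene with 10 kb on either side, however, U2OS and Saos-2 had 5 hotspots of any width each. TEAD4 had 2 sites beside the gene (significances 6.64 and 4.19), and TEAD1 (13.6), the TEAD-binding cofactor VGLL4 (18.9), the upstream kinase STK3 (9.60) and the ligand TGFB2 (15.6) had 1 each inside the gene. Counted as for YAP1, U2OS and Saos-2 hotspots numbered 6 and 1 at TEAD4, 13 and 10 at TEAD1 and 5 and 4 at TGFB2. They numbered 5 and 9 at VGLL4 and 12 and 14 at STK3, where Saos-2 had more. Saos-2-only wide hotspots lay near 3 of the 25 genes (12%).

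Adhesion to the matrix was represented by integrins, which are cell surface receptors, and laminins, which are proteins of basement membranes. Sites lay near 8 of 39 of these genes (20.5%, 10.8 to 35.5%; median length 79.4 kb), against 10.3% for Saos-2-only wide hotspots. LAMA1 had 3 sites (significances 14.7, 19 and 43.4) and no Saos-2 hotspot. LAMA2 had 2, and the first covered a promoter window where Saos-2 had no hotspot (9.67). ITGB3 had 2 (10.0 and 7.34), ITGA8 had 1 (33.2) with no Saos-2 hotspot in its span, and ITGA1 (5.36) and LAMB3 (7.87) had 1 each at or near the promoter.

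For collagens, which are long genes with a median of 133 kb, the Saos-2 share was the larger. Of 42 collagen genes 2 had a U2OS-only site (4.76%, 1.32 to 15.8%) and 9 a Saos-2-only wide hotspot (21.4%, 11.7 to 35.9%). The 2 were COL22A1, with sites of significance 6.86 and 6.30, and COL17A1 (9.64). Among matrix proteases and their inhibitors, with a median length of 28 kb, 3 of 45 had a site (6.67%, against 8.89% for Saos-2-only wide hotspots), ADAMTS12, ADAMTS2 (33.9 and 19) and MMP16 (11.7).

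Epithelial junction and keratin genes are short, with a median of 15.8 kb, and 8 of 47 had a site (17%, 8.89 to 30.1%), while none had a Saos-2-only wide hotspot (0 to 7.56%). Besides CLDN6 and CLDN9, which share their 2 sites, TJP1, which encodes the junction scaffold ZO-1, had 2 sites at 48.0 and 47.4 kb from a transcription start (5.78 and 12). These TJP1 sites lie within 0.976 kb, at 3.15 kb from the nearest Saos-2 hotspot. Along TJP1 there were 24 U2OS and 17 Saos-2 hotspots, and its promoter had hotspots in both lines. KRT8 and KRT18, neighbouring keratin genes, shared 1 site inside KRT8 (11.6), and CLDN11 had 1 (6.09). The 8 genes had 8 sites between them.

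Receptor tyrosine kinases had sites near 9 of 54 genes (16.7%, 9.02 to 28.7%; median length 84.1 kb), close to the 14.8% of Saos-2-only wide hotspots. ALK, a receptor of the nervous system, had 3 (9.58, 15.8 and 17.7), the angiopoietin receptor TEK had 2 (14.8 and 6.62), and EPHA5 (25.8) and ERBB4 (16.9) had 1 each. Axon guidance genes had sites near 9 of 56 (16.1%, 8.69 to 27.8%; median length 86.6 kb), against 14.3%. The median lengths of both lists lie at the lower end of the longest of the 5 length groups. In that group 16.6% of all genes had a site and 11.8% a Saos-2-only wide hotspot, so both U2OS shares are close to that of long genes. ROBO2, a receptor for Slit proteins, had 3 (15.9, 4.77 and 21.1), SEMA3E had 2 (15.1 and 16.6) and ROBO3 had 1 of 801 bp over promoter windows where Saos-2 had no hotspot (9.88).

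In pathways of bone, shares had intervals that reached below 6.04%. Among osteoblast genes 3 of 26 had a site (11.5%, 4.0 to 29%). These were RUNX2, the master regulator of the lineage (13.8, inside the gene), ALPL, the alkaline phosphatase of mineralising bone (15.8, outside the gene), and ANKH, a pyrophosphate transporter gene (5.99, at the promoter). Promoter hotspots differed among them: RUNX2 had them in both lines, ALPL in Saos-2 only and ANKH in U2OS only. Along RUNX2 there were 6 U2OS and 10 Saos-2 hotspots. In TGF-beta and BMP signalling 5 of 59 had a site (8.47%, 3.67 to 18.4%), against 1.69% for Saos-2-only wide hotspots, with TGFBR3 at 2 sites (26 and 13.5) and TGFB2, GREM1, SMAD3 and ACVR2A at 1 each. The GREM1 promoter had a hotspot in Saos-2 only. In WNT signalling 7 of 59 had a site (11.9%, 5.87 to 22.5%), against 10.2%. The WNT antagonist gene DKK1 had a site of 647 bp (29.4) 4.64 kb from its start and no Saos-2 hotspot in its span. RNF43 (24.7), LRP6 (12.2), LGR5 (7.41) and LGR6 (6.17) also had 1 each. ROR1 had 1 (7.49), with a promoter hotspot in Saos-2 only and 25 Saos-2 against 10 U2OS hotspots.

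In the remaining lists with sites, HOX genes had 4 of 39 (10.3%), all from 1 site of 430 bp at HOXC4, HOXC5, HOXC6 and HOXC8 (5.75). Nuclear receptors had 5 of 44 (11.4%), led by PPARD with 2 sites (23 and 29.5) and NR1I2, the xenobiotic receptor PXR (36.8). NR3C1, the glucocorticoid receptor gene, had 1 (9.05) and a promoter hotspot in Saos-2 only. Mesenchymal transcription factors had 2 of 22, MEOX2 (10.7) and SNAI2 (7.91). Potassium channels had 9 of 93 (9.68%), growth factor ligands 4 of 42 (9.52%) and cadherins 2 of 23 (8.70%). The smallest shares were those of ribosomal proteins 2 of 79 (2.53%), DNA replication 1 of 39 (2.56%), cytokines and NF-kB 5 of 141 (3.55%), interferon response 1 of 30 (3.33%) and olfactory receptors 10 of 389 (2.57%, 1.40 to 4.67%). Ribosomal protein and olfactory receptor genes are short, with median lengths of 5.01 and 3.00 kb. Their shares are close to the 2.51% of the shortest of the 5 length groups. None of 12 AP-1 genes had a site (0 to 24.2%).

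**Figure D5:**
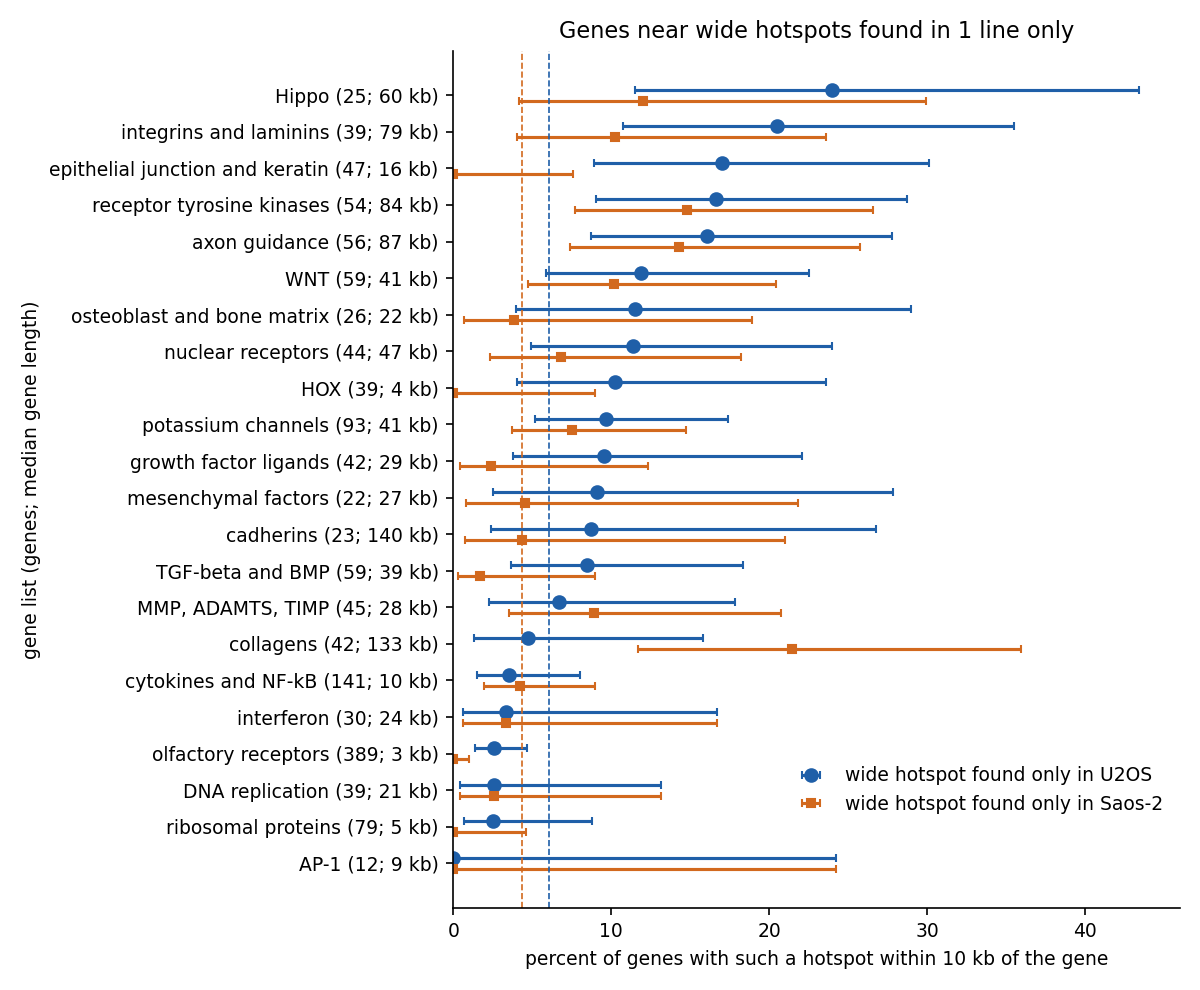
Percent of the genes of each list (rows, with the number of genes and the median gene length) that have a wide hotspot found only in U2OS (circles) or only in Saos-2 (squares) within 10 kb. Bars are Wilson 95% intervals and dashed lines the shares of all protein-coding genes, 6.04% for U2OS and 4.37% for Saos-2. Hippo genes stand at 24.0% for U2OS and collagens at 4.76% for U2OS and 21.4% for Saos-2.

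Genes of noncoding RNA were near some sites as well. A long noncoding RNA gene end lay within 1 kb of 194 sites (8.37%, 7.31 to 9.57%), against 14% of shared wide and 5.20% of Saos-2-only wide hotspots. The hairpins of MIR9899 and MIR6090 were overlapped by sites with significances of 6.36 and 7.26.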

How the data were processed

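DNase-seq libraries of Saos-2 and U2OS, 1 per line, were analysed from the lists of hotspots that the authors deposited. Per the submitters' processing notes, the tools named were Trimmomatic 0.38 and BWA 0.7.15, and the build was hg38. The peak caller, its settings and the read filters are not given in the sources used here. The names of the deposited files state a false discovery rate of 0.05. Each deposited hotspot has a −log10 value, taken here as its significance because the lowest was 1.30 and the upper limit was 100. The lists have no header that names it. The deposited score column was not used.

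Hotspots were compared in Python 3.11.15 with pandas 2.3.3, NumPy 2.4.6 and SciPy 1.17.1. Positions on the files' hg38 were set beside RefSeq genes on GRCh38.p14, with 19126 autosomal protein-coding genes. Promoter windows were available for 15101 of these, with none on chromosome 8, whose sites are left out of promoter values. The code was tested on simulated hotspots. The sites and gene lists were chosen with earlier results of these data known. A further gene list and a gene of another list are not reported here. Named were the 10 most significant sites, the 5 widest, the 5 farthest from genes, the 5 largest clusters, the 10 genes with the most covered bases, also among genes without a Saos-2 hotspot, the first 10 promoters, 3 chromosomes at each end, and at most 6 genes per list. Alternatives changed the width, the clearance, the list length, the threshold, merging, the windows and the gene set.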

Additional observations from a re-analysis of the deposited data

Results flagged for a closer look

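Chromosome X was outside the set. By the same criteria it held 44 such hotspots among 216 wide U2OS hotspots (20.4%, Wilson 95% interval 15.5 to 26.2%), a share within counting error of the autosomal 20.6%. The value drew attention because it is a signal in data that the comparisons did not use.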

How the results depend on the processing

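Of 88 recomputed values, 55 stayed within 1.5 times a count or within the interval of a share or median, and 33 moved. The 55 include settings that could not show stability. Keeping chains of 8 or more changed nothing, since no site lay in one. Cutting the U2OS list to the number of Saos-2 hotspots left 2316 of the 2317 sites. With a minimum width of 300 bp there were 6074 sites, 27.2% of wide hotspots, with 35.4% clustered, 2601 genes and a median significance of 9.55. At 600 bp there were 408 sites (13.4%), with 11% at a gene end, 8.58% clustered, 224 genes and a median of 15.1. With the top 50% of both lists there were 3640 sites (33.3%), 14.5% at a gene end, 49.6% inside a gene, a median distance of 38.2 kb, 26.6% clustered, 2043 genes and a median of 12.7. Keeping all Saos-2 hotspots beside the top 50% of U2OS, a choice made after seeing the data as was leaving out chromosome 8, gave a median of 12.6. Without a required clearance the share of wide hotspots was 22.4%, and with 10 kb it was 16.2% at a median distance of 58.2 kb. Merging gave 22.2%, 10.4% at a gene end and 47.5 kb. With gene ends within 2.5 kb the share was 11.8%. With all annotated genes it was 16.7% at a gene end, 61.2% inside a gene and 12.6 kb. Clustering was 11% at 20 kb and 29.4% at 100 kb, and 2321 genes had a site within 50 kb. The cause was not tested, except that wider windows count more by construction. The share at a gene end stayed below that of shared wide hotspots in each setting where both were computed.

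No paired analysis was possible because each line has 1 library and no replicates. Depth is unknown, so weak Saos-2 sites below the authors' threshold cannot be told from closed DNA.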
